A study of Mus musculus with 15 samples.

Results

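The Usp17l genes are a family of closely related mouse deubiquitinase genes. Out of 46517 genes in the deposited count files, 5 of them were followed by their annotated symbols: Usp17la, Usp17lb, Usp17lc, Usp17ld and Usp17le. The genes were chosen by their RNA counts in KO against control samples of this series, so these values are given as a description, without a test. In all, 15 samples were taken from C57BL/6 mice. RNA was sequenced from 3 controls with floxed alleles (Dnmt1 f/f) and 3 KO samples (Six2Cre Dnmt1 f/f), all from kidney at postnatal day 0 (P0). DNA methylation was read by reduced representation bisulfite sequencing (RRBS) in 3 controls and 3 KO samples of the same genotypes and age, and in 3 wild type adults of 6 weeks. Controls and KO samples both carry the floxed alleles, and the KO samples alone carry the Cre. Six2 drives that Cre in nephron progenitors and hence in the cells derived from them. The labels give Six2+ cells as the source, but the protocol describes extraction from entire kidneys, so cells outside that lineage may be present.

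Deubiquitinases remove ubiquitin, a small protein tag that often marks proteins for destruction, from their targets. Those of the USP type are cysteine proteases. The mouse Usp17l genes were first described as DUB genes, Usp17la (Dub1) as a gene switched on by interleukin-3 and Usp17lc (Dub2) as one switched on by interleukin-2 in blood cells, and the related human USP17 acts on the cell cycle phosphatase CDC25A. Members of the family are also transcribed in the cleavage-stage mouse embryo together with Zscan4. DNMT1, the enzyme deleted here, copies CpG methylation onto the new DNA strand at replication.

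All 5 genes lie on chromosome 7 (GRCm38), spread over 1612582 bases. Usp17ld (ENSMUSG00000057321.2, 103250086 to 103252505) and Usp17lc (ENSMUSG00000058976.4, 103416696 to 103419174) are 164190 bases apart. After a gap of 1348786 bases follow Usp17le (ENSMUSG00000043073.9, 104767961 to 104777470), Usp17lb (ENSMUSG00000062369.2, 104840257 to 104842583) and Usp17la (ENSMUSG00000054568.7, 104857016 to 104862667), the last pair only 14432 bases apart. RefSeq start sites with flanking sequence (GRCm38.p6) matched 4 of the 5 genes. The 250 bases before each start are shown because they display how alike the copies are and how few CpG they hold. Capitals mark TTCNNNGAA (the palindrome bound by STAT factors), CCACACCC (a CACCC box), TATAAA (the TATA box) and CG, each searched on both strands, and the coordinates are chr7:104856766-104857015 on the plus strand for Usp17la, chr7:104842584-104842833 on the minus strand for Usp17lb, chr7:103416446-103416695 on the plus strand for Usp17lc and chr7:103252506-103252755 on the minus strand for Usp17ld.
Usp17la: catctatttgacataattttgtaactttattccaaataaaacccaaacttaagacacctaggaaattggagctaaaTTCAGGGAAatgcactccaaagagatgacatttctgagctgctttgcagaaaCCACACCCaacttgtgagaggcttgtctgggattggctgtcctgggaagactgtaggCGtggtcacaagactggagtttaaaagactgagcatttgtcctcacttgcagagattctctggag
Usp17lb: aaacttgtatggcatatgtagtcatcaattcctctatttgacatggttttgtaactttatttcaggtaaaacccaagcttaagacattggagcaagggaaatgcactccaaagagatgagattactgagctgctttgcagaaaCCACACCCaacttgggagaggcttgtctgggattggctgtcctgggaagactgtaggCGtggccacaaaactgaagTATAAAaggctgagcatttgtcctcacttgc
Usp17lc: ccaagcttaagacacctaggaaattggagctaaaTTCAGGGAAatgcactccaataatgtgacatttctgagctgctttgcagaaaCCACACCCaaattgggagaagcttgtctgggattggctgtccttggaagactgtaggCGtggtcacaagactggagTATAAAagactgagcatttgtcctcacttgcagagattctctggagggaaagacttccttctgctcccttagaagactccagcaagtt
Usp17ld: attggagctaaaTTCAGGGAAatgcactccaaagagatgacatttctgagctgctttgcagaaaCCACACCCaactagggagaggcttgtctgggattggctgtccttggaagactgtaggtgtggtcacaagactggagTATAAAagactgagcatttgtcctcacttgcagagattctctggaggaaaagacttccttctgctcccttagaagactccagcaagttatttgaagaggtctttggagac

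Over the stretch that each pair shares, identity ran from 85.5% (Usp17lb and Usp17lc, 165 of 193 aligned columns) to 97.3% (Usp17la and Usp17ld, 181 of 186). The annotated starts do not fall at the same place in this shared sequence: the CACCC box begins at -107 in Usp17lb, -122 in Usp17la, -164 in Usp17lc and -186 in Usp17ld, counted from the start. Its distance to the other letters is fixed all the same. TATAAA begins 76 bases after the start of the CACCC box in Usp17lb, Usp17lc and Usp17ld, and the 6 letters at that place in Usp17la are tttaaa. TTCNNNGAA begins 52 bases before it in Usp17la, Usp17lc and Usp17ld, and was not found in the window of Usp17lb.

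Among 32851 promoter windows of the same 250-base length, 12.4% held TATAAA, 3.20% held CCACACCC and 7.02% held TTCNNNGAA. CpG was scarce. Usp17la, Usp17lb and Usp17lc each held 1 CG, at the same place 57 bases after the start of the CACCC box, and Usp17ld held 0, against a median of 6 over all windows, of which 18.8% held at most 1. CCGG, the letters that the restriction enzyme MspI cuts to make RRBS fragments, was in 47.1% of all windows and in none of the 4.

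In the P0 controls the family had almost no reads. Of 33657577, 34102567 and 33917525 reads assigned to genes in controls 1 to 3, the 5 genes together received 0, 0 and 1. In KO samples 1 to 3 they received 2143, 1630 and 2260 of 31541317, 29394261 and 26773937. Scaled by library size (CPM, the count scaled to a common library size with the TMM factors of edgeR), the family's sum was 66.8, 53.4 and 85.9 CPM in the KO samples, a mean of 68.7 ± 16.3 (SD, n = 3). Dnmt1 itself stood at 175 ± 16.6 CPM in controls and fell to 104.8 ± 9.57 CPM in KO (SD, n = 3 per group, log2 fold change -0.74, SE 0.12, edgeR adjusted p 0.00577). In such bulk tissue, fewer cells with a transcript and less of it per cell cannot be told apart.

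Usp17le had counts of 965, 801 and 929 in KO samples 1 to 3 and 0 in each control. Its KO level was 30.1, 26.3 and 35.3 CPM, a mean of 30.5 ± 4.54 (SD, n = 3). For a count of 0, 3 reads over the 3 controls together were set as an upper limit (0.0299 CPM). Against it the level in KO was at least 1016-fold higher. This bound, and those of the other members without a control read, pool the samples of a group and cover counting error only. Usp17le is the mouse gene whose RefSeq synonyms include Dub3 and USP17.

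Usp17lb, annotated as Dub1a, had 347, 333 and 349 reads in the KO samples and 0 in each control. This was the steadiest member, at 10.8, 10.9 and 13.3 CPM (mean 11.7 ± 1.39, at least 388-fold higher than the control limit). Usp17la (Dub1) had 200, 143 and 263 reads in KO and 0 in each control, or 6.23, 4.69 and 9.99 CPM (mean 6.97 ± 2.73, at least 228-fold higher). Usp17la and Usp17lb are the closest neighbours of the family.

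At the other end of the cluster, Usp17ld (Dub2a) had 211, 169 and 219 reads in KO and 0 in each control, or 6.57, 5.54 and 8.32 CPM (mean 6.81 ± 1.41, at least 226-fold higher). Usp17lc (Dub2) was the only member with a control read, 1 in control 3. Its KO counts were 420, 184 and 500, or 13.1, 6.03 and 19.0 CPM (mean 12.7 ± 6.49). The ratio of KO to control was 1248, with a 95% counting interval from 224 to 49340 that shows how little 1 read fixes it and that covers counting error only.

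**Figure D1:**
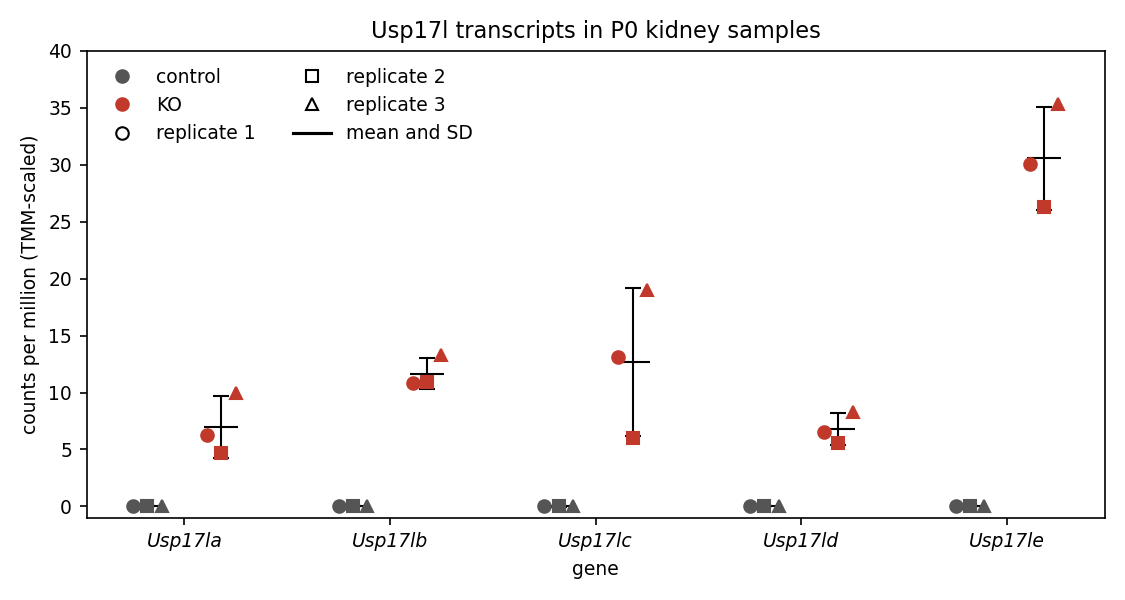
CPM of the 5 genes in each P0 kidney sample, with controls in grey, KO in red, marker shape for the replicate number, and a bar and whiskers for the mean and SD of 3 samples. Controls lie at 0 apart from 0.0272 CPM of Usp17lc in control 3, while KO values run from 4.69 CPM (Usp17la, KO 2) to 35.3 CPM (Usp17le, KO 3).

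All 5 genes passed the filter on low counts, and they did so through their KO counts alone. All 5 were also among the genes called higher in KO (edgeR adjusted p under 0.05), a call made for 6.36% of the 18132 genes tested, while 8.23% were called lower. Since this contrast chose the genes, nothing is read from that count. Transcript lengths were not used, so levels were not ranked between the genes.

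The 3 KO samples differed in how much of the family they held and in its make-up. KO 3 was highest at all 5 genes, and KO 2 was lowest at every gene except Usp17lb, where KO 1 was lowest. The highest KO sample exceeded the lowest by 1.23 times at Usp17lb, 1.34 at Usp17le, 1.502 at Usp17ld, 2.13 at Usp17la and 3.15 at Usp17lc. Without KO 2 the family's mean in KO exceeded that in controls by 76.3 CPM in place of 68.7.

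Usp17lc was the most uneven member, with an SD of 51.1% of its KO mean. It gave 19.6% of the family's reads in KO 1 (95% Wilson interval 18 to 21.3), 22.1% in KO 3 (20.5 to 23.9) and 11.3% in KO 2 (9.84 to 12.9). The interval of KO 2 lies wholly below those of the other samples. Usp17ld, the nearest member, had shares of 9.85%, 10.4% and 9.69% in KO samples 1 to 3, with overlapping intervals (8.66 to 11.2, 8.98 to 11.9 and 8.54 to 11.0). It was the only member of which this held. The intervals of KO 2 and KO 3 were also apart at Usp17la (7.49 to 10.2 and 10.4 to 13.0). The same was seen at Usp17lb (18.5 to 22.5 and 14.0 to 17.0) and Usp17le (46.7 to 51.6 and 39.1 to 43.1). Shares of a common total move together, and these intervals cover counting error only. At other genes with close copies the order of the KO samples varied, as 3 examples picked after their values were seen show. Trim12a, which lies 452403 bases from Usp17le in the same cluster, had 259, 0 and 165 reads in KO samples 1 to 3 against 135, 134 and 184 in controls. Zscan4c, a gene of the Zscan4 cluster elsewhere on this chromosome, had 1043, 135 and 1054 reads in the KO samples and 0 in each control. Tcstv1, a 2-cell gene, was instead highest in KO 2, at 10.25, 17.4 and 15.01 CPM in KO samples 1 to 3.

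**Figure D2:**
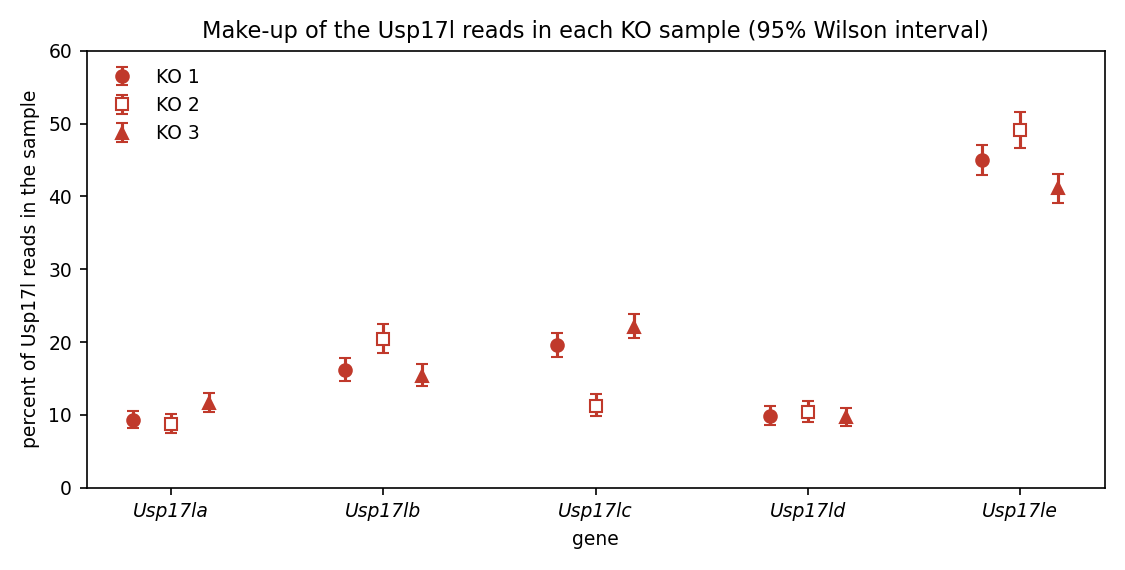
Share of each gene in all Usp17l reads of a KO sample, with 95% Wilson intervals for counting error. Usp17ld keeps a share near 10% in all 3 samples, while Usp17lc is at 11.3% in KO 2 against 19.6% and 22.1% in the others. At Usp17la, Usp17lb and Usp17le the intervals of KO 2 and KO 3 also do not overlap.

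Because the copies are closely related, reads that align to several of them matter. Such reads were outside the gene counts in every library. Alignments listed as not unique made up 14.0% to 24.6% of all entries in the control files and 22.5% to 28.0% in the KO files, so the ranges overlapped. A read that aligns to several places may be entered more than once, so these need not be shares of reads. What part of these alignments came from Usp17l copies was not tested. The annotated pseudogene Usp17le-ps, which lies between Usp17lc and Usp17le, had 1, 1 and 0 reads in the KO samples and 0 in each control.

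Most genes around the family had no reads in either group. The protein-coding genes between the members, with 5 more on either side, numbered 84 in the count files besides the members themselves, and 63 had no read in any of the 6 samples. The 65 olfactory receptor (Olfr) genes, odour sensors of the nose that make up most of the cluster, had 2 reads in the controls and 10 in the KO samples in all, with at most 4 in any gene and sample. The 10 genes that flank the cluster had 1 read in all, at Olfr592 in a control. Of the 10 neighbours with enough reads to test, 1 was called higher in KO and none lower, beside 6.36% called higher among all genes. The called gene was Trim12c, of the TRIM5-like family of antiviral ubiquitin ligases, with 355, 404 and 369 reads in controls and 922, 724 and 580 in KO (log2 fold change 1.14, SE 0.17, edgeR adjusted p 0.00377). The adult beta-globin genes Hbb-bs and Hbb-bt, markers of red blood cells, had log2 fold changes of -0.06 (SE 0.43, edgeR adjusted p 0.954) and -0.29 (SE 0.32, edgeR adjusted p 0.633).

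**Figure D3:**
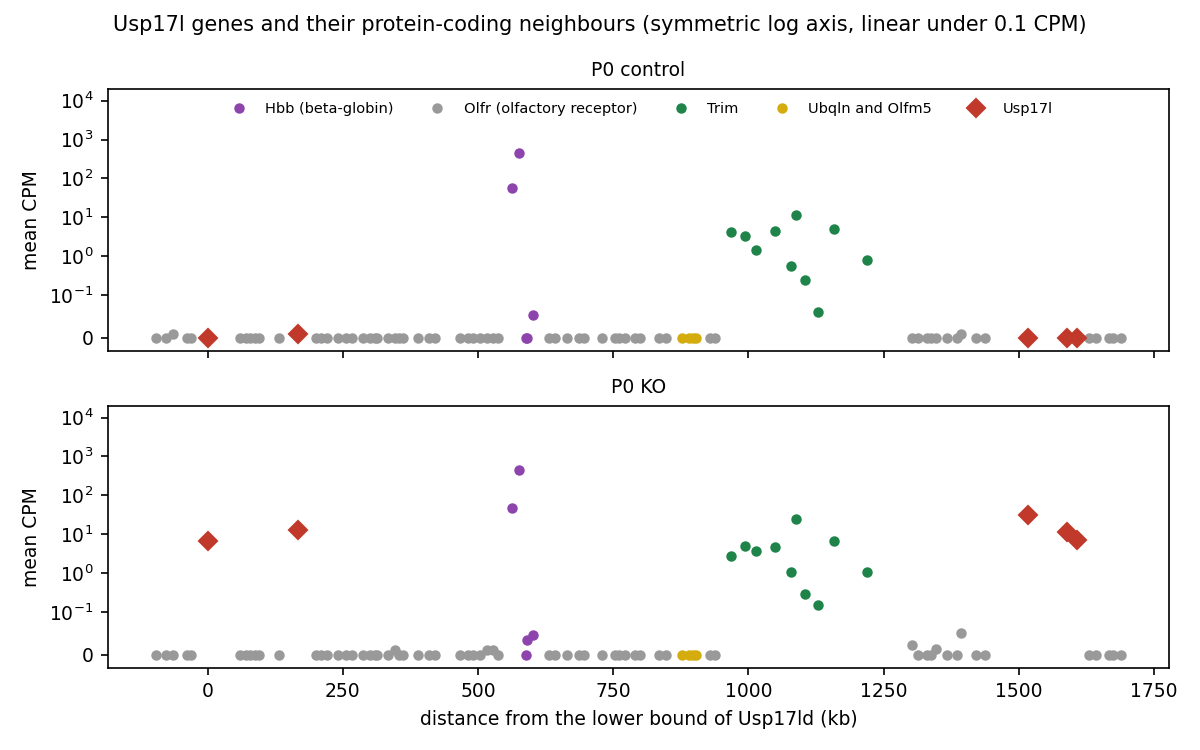
Mean CPM of the Usp17l genes (red diamonds) and their protein-coding neighbours in P0 controls (top) and KO (bottom), by distance from the lower bound of Usp17ld. The axis is a symmetric log scale that is linear under 0.1 CPM. The 5 Usp17l genes stand at or near 0 in controls and between 6.81 and 30.5 CPM in KO, while the 65 Olfr genes around them stay at or near 0 in both.

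Of 50 further Usp genes in the files, taken by their symbols and not by enzyme activity, 48 were tested. Of the 48, 1 was called higher and 1 lower in KO, against 6.36% and 8.23% of all genes tested. Their median log2 fold change was 0.08, against 0.00 over all genes tested. The higher gene was Usp26, an X-linked gene known from testis, with 20, 12 and 18 reads in the KO samples and 0 in each control, so that it passed the filter through KO alone. The lower gene was Usp2, a deubiquitinase under circadian control, with a mean of 66.0 ± 16.9 CPM among controls and of 23.7 ± 3.36 CPM among KO samples (SD, n = 3 per group), a log2 fold change of -1.48 (SE 0.20, edgeR adjusted p 0.00226).

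The transcripts of 6 proteins known as substrates of human USP17 were tested, and none was called. With 6.36% of all genes called higher and 8.23% lower, that count says nothing particular about 6 genes. Cdc25a, the cell cycle phosphatase, had a log2 fold change of -0.12 (SE 0.12), Rce1, a protease that matures Ras-type proteins, -0.11 (SE 0.16), and Suds3, a subunit of the Sin3 corepressor, -0.05 (SE 0.11). The viral RNA sensors Ddx58 and Ifih1 stood at 0.58 (SE 0.26) and 0.68 (SE 0.25), and Snai1, a regulator of the epithelial to mesenchymal transition, at 0.64 (SE 0.28). The edgeR adjusted p values of the 6 genes ran from 0.122 (Ifih1) to 0.819 (Suds3). Substrate protein was not measured.

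Of the cytokine pathway under which the DUB genes were first described, all 17 listed genes were in the files and 16 were tested. None was called, beside 6.36% of all genes called higher and 8.23% lower, and their median log2 fold change was -0.05. Il2ra, a receptor chain of activated lymphocytes, had at most 4 reads in any sample. Among 12 leukocyte markers, the T cell genes Cd3d and Cd3e had at most 3 reads in any sample, and 1 of the 9 markers tested was called higher: Ptprc, the common leukocyte antigen CD45, with 11.9 ± 1.97 CPM among controls and 20.6 ± 3.97 CPM among KO samples (SD, n = 3 per group, log2 fold change 0.79, SE 0.20, edgeR adjusted p 0.033). The summed level of the 12 leukocyte markers was 245 to 265 CPM in controls and 183 to 221 CPM in KO, while the median log2 fold change of the 9 tested was 0.17. Sum and median differ in sign. Cd34, which endothelium also expresses, made up about as much of the sum as all the others and stood at 129 ± 24.0 CPM in controls and 94.1 ± 7.79 CPM in KO (not called). The 6 nephron progenitor markers were all detected and summed to 134 to 292 CPM in controls and 220.0 to 267 CPM in KO. Six2 stood at 82.2 ± 35.6 and 94.3 ± 10.2 CPM and was not called, Cited1 was called lower (log2 fold change -2.53), and Osr1 and Eya1 were called higher (0.95 and 0.65). The 5 proximal tubule markers summed to 1257 to 3216 CPM in controls and 287 to 334 CPM in KO, and the 4 podocyte markers to 658 to 892 and 229 to 297 CPM. All 9 of these were called lower, as were 2 of 3 endothelial markers, Cdh5 and Pecam1 (387 to 584 CPM for the 3 in controls, 266 to 331 in KO), beside 8.23% of all genes. Beside 6.36% of all genes, 2 of 4 ureteric markers (379 to 445 CPM in controls, 517 to 583 in KO) and 2 of 3 stromal ones (1061 to 1503 and 1163 to 1321 CPM) were called higher. Of the 6 germ cell markers 5 were called higher, again beside 6.36% of all genes. With at most 5 reads in any control, Dazl, Mael, Stra8 and Tex101 passed the filter through KO alone. The 6 markers summed to 1.16 to 2.28 CPM in controls and 63.3 to 104 CPM in KO, most of it Dazl. The meiotic gene Sycp3 stood at 1.09 and 1.03 CPM. The part of such shifts in the Usp17l result was not tested.

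Genes of the 2-cell embryo were counted from a list of 26. Of these, 22 were in the files and 17 had enough reads to test. Of the 17, 15 were called higher in KO and none lower, beside 6.36% and 8.23% of all genes, and Arg2 and Sp110 were not called. In 15 of the 22 no control had a read, so those of them that were tested had passed the filter through KO alone, and the list was drawn up with results of these data known. Zscan4d, with the highest CPM of the list in KO before any scaling for length, had counts of 1865, 1140 and 2014 against 2, 0 and 0 in controls. Duxf3, which encodes the DUX factor, had 19, 28 and 18 reads in KO and 0 in each control.

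Likeness to the family's sum was measured as Pearson's r of log2(CPM + 1) over the 6 RNA samples, among 13686 genes with a symbol that is not a clone name and at least 1 CPM in every KO sample. It is a description, since the samples form 2 groups and 80 of these genes exceeded 0.99. The 5 most alike were Tcstv3 (r = 0.9999), another 2-cell gene, Cntnap5b (0.9998), Tex19.1 (0.9998), known from germ cells and placenta, Tex13b (0.9996) and the RNA export factor Nxf3 (0.9996). Tcstv3 had 272, 240 and 260 reads in the KO samples and 0 in each control, at 8.48, 7.87 and 9.88 CPM. As at most of the Usp17l genes, the order was KO 3, KO 1, KO 2. None of the 5 lies on chromosome 7.

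Methylation was not used in choosing the genes, and it could be compared at only 1 of them. RRBS called 26 positions in or within 5 kb of the 5 genes, and 14 of these were called in a single sample. In the windows of Usp17la, Usp17lb and Usp17ld no position was called in more than 1 sample, and the 9 samples gave 16, 2 and 6 calls in all. Usp17lc had 3 positions, all outside the gene, with 42 calls in controls, 16 in KO samples and 14 in adults. Usp17le had 10 positions, 9 of them within its annotated bounds, with 264, 267 and 253 calls. By contrast, 79.9% of 21900 annotated protein-coding genes had at least 1 position in such a window with 10 or more calls in all 6 P0 samples, with a median of 13.

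A single position reached 10 calls in every sample, at 104767722, which lies 239 bases outside the lower bound of Usp17le. No start site was matched for this gene, so whether the position lies at its promoter or at its far end was not determined. It was methylated in 19 of 27 calls in control 1 (70.4%, 95% Wilson interval 51.5 to 84.2), 60 of 68 in control 2 (88.2%, 78.5 to 93.9) and 14 of 17 in control 3 (82.4%, 58.97 to 93.8). In the KO samples it was methylated in 16 of 41 calls (39.0%, 25.7 to 54.3), 31 of 59 (52.5%, 40.04 to 64.7) and 11 of 16 (68.8%, 44.4 to 85.8). Every KO sample lay below every control, though KO 3 and control 1 were 68.8% and 70.4%, closer than their counting error.

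The control mean was 80.3% ± 9.10 and the KO mean 53.4% ± 14.9 (SD, n = 3 each), a difference of -26.9 points (two-sided exact permutation p = 0.1, the smallest that 3 samples against 3 allow). Such a loss was common. Every KO sample lay below every control in 74.8% of 17491 protein-coding gene windows, at 36.9% of all 380162 positions and at 63.1% of the 199856 positions with a control mean of at least 60%. At the last class the median difference was -23.7 points (quartiles -31.0 and -16.5), so the position beside Usp17le lost about as much as a methylated position of the genome.

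Inside Usp17le each position had fewer calls than the one beside it, and the pooled calls pointed the same way. Pooled over its 9 positions, a choice made after seeing the data, methylated calls were 35 of 37, 68 of 78 and 35 of 37 in controls (94.6%, 87.2% and 94.6%) and 60 of 70, 36 of 61 and 14 of 20 in KO (85.7%, 59.02% and 70.0%). The means were 92.1% ± 4.28 and 71.6% ± 13.4, a difference of -20.5 points (exact permutation p = 0.1), again with no overlap. That gap was not spread evenly over the positions. In KO 3 all unmethylated calls were at 104768702, with 0 of 6 methylated. At 104768703 the KO samples had 18 of 19, 11 of 11 and 4 of 4. The pool also held unlike positions, since 104768019 was called at P0 in KO 1 and KO 2 alone (0 of 3 and 0 of 2). Without that position KO 1 would lie above control 2. The lack of overlap, and with it the exact permutation p of 0.1, thus rests on a position that no control called. All 9 positions lie 58 to 742 bases from the lower bound of a gene that spans 9510 bases, and the rest of it had no call. So most calls in this short stretch remained methylated in KO samples, as in the controls.

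The adults were highly methylated at the position beside Usp17le, with 30 of 32, 18 of 19 and 54 of 60 calls (93.8%, 94.7% and 90.0%, mean 92.8% ± 2.50). Each adult lay above each control, a difference of 12.5 points (exact permutation p = 0.1), in a direction found at 6.97% of all 704580 positions compared, at 5.18% of those with a control mean of at least 60% and in 13.2% of gene windows. This did not extend to the called positions within the gene bounds. There adults had 33 of 46, 37 of 41 and 49 of 55 methylated calls (71.7%, 90.2% and 89.1%), a mean 8.43 points below that of the controls (exact permutation p = 0.3).

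**Figure D4:**
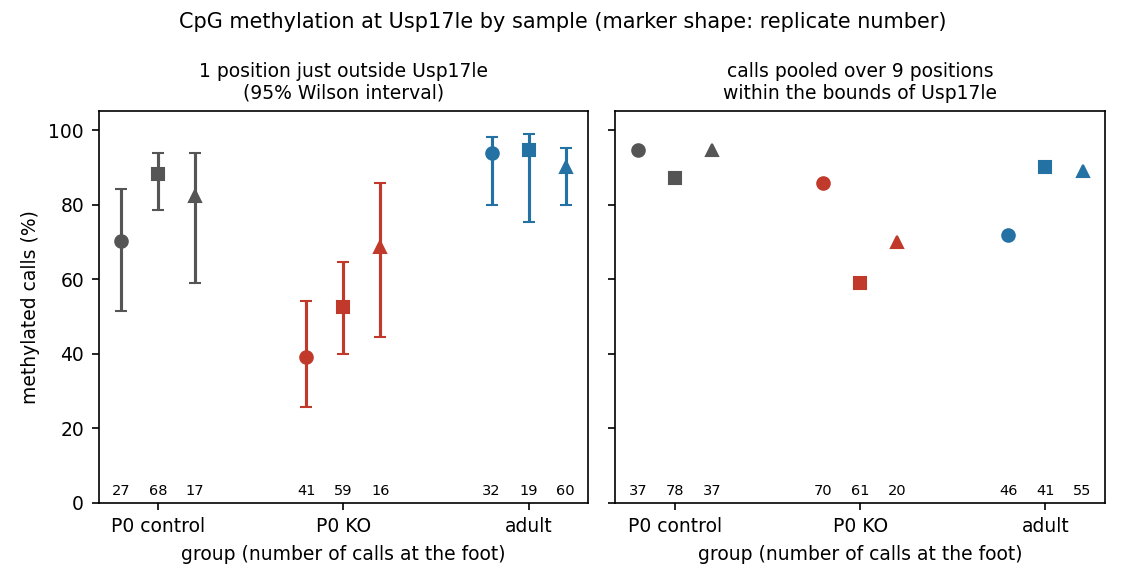
Methylated calls in percent by sample at the position 239 bases outside Usp17le (left, 95% Wilson intervals) and pooled over 9 positions within its bounds (right), with the number of calls at the foot. In both panels the 3 KO samples lie below the 3 controls, at 39.0% to 68.8% against 70.4% to 88.2% on the left and at 59.02% to 85.7% against 87.2% to 94.6% on the right. On the right the lack of overlap rests on position 104768019, which no control called.

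At 4 places inside Usp17le RRBS called both of a pair of adjacent positions, which are the cytosines of a CpG on the plus and the minus strand. At 104768702, on the plus strand, methylated calls were 3 of 5, 21 of 27 and 9 of 10 in controls and 18 of 22, 3 of 15 and 0 of 6 in KO samples 1 to 3. At 104768703, its partner on the minus strand, they were 10 of 10, 17 of 19 and 9 of 9 in controls and 18 of 19, 11 of 11 and 4 of 4 in KO. In KO 2 and KO 3 the plus strand was thus mostly unmethylated and the minus strand fully methylated in the calls made. Adult 1 showed a like split, with 2 of 9 and 7 of 8, while adults 2 and 3 had 8 of 8 and 17 of 19 on the plus strand and 6 of 6 and 8 of 9 on the minus strand. At 104768019 and 104768020 the plus strand had 0 methylated calls in all, of 3 in KO 1, 2 in KO 2 and 1 each in adults 2 and 3. The minus strand there had 5 of 11 in KO 2, 11 of 15, 11 of 14 and 10 of 11 in adults, and 4 of 4, 2 of 2 and 1 of 1 in controls. The pair at 104768658 and 104768659 had at most 3 calls a sample on either strand. The pair at 104768690 and 104768691 showed no such split in KO, with 3 of 3 in each sample on the plus strand and 18 of 20, 10 of 12 and 4 of 4 on the minus strand. These places were singled out after their values were seen, and the split was not tested.

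Beside Usp17lc the position with most samples was 103414332, which lies 2364 bases outside the gene. It was methylated in 2 of 5, 14 of 16 and 6 of 7 calls in controls, in 2 of 2, 0 of 1 and 5 of 5 in KO, and in 5 of 6 in adult 1. Neither a loss nor its absence can be read at this depth. Pooled over the 4 members other than Usp17le, the controls stood at 42.9%, 87.0% and 92.3% of 7, 23 and 13 calls and the KO samples at 69.2%, 16.7% and 50.0% of 13, 12 and 14 calls (exact permutation p = 0.3), and the groups overlapped.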

How the data were processed

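Gene counts were deposited by the authors as raw reads per gene, from STAR 2.4.1d and HTSeq 0.6.1 per the submitters' processing notes, which also name Trim Galore, Bismark and build mm10 (GRCm38). The deposited RRBS files give a methylation percent and the counts of methylated and unmethylated calls per position. The annotation release and strand setting are not given in the sources used here. Entries in the 5 unassigned categories (22.9% to 35.8% of all entries listed) were left out. Of 46517 genes, 46005 matched a symbol.

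Counts were fitted over all genes with edgeR 4.0.16 (R 4.3.3; TMM, filterByExpr, quasi-likelihood test, Benjamini-Hochberg adjustment, threshold 0.05), tested on simulated data. CPM use the TMM-scaled library sizes. Methylation was averaged over positions with at least 10 calls in every sample compared, within 5000 bases of RefSeq gene bounds, and compared by two-sided exact permutation over samples (Python 3.11.15, scipy 1.17.1). RRBS samples held 18424875 (KO 3) to 88765177 (control 2) calls. Wilson and exact intervals cover counting error only. The labels do not say whether replicates are separate animals, so p-values measure the spread between these samples. Promoter windows were aligned in pairs with Biopython 1.88 with free end gaps. No protein sequence was used here.

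The members and lists were chosen with earlier results of these data known. Named genes were the members, Dnmt1, further Usp genes past the threshold or without control reads, neighbours, the 5 genes most alike and listed genes. The examples Trim12a, Zscan4c and Tcstv1 and the singled-out positions were chosen after their values were seen. Alternatives were a replicate block, DESeq2 1.42.0, library size alone, other filters, other call minimums and windows, pooled calls, and each replicate left out.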

Additional observations from a re-analysis of the deposited data

How the results depend on the processing

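The log2 fold changes of the 5 members, which depend on the small counts that the tools add to empty controls, stayed between 9.40 and 13.02 over 50 values from other settings, of which 46 moved by less than the spread between KO samples; with at least 10 counts in every sample none of the 5 could be tested. The family's sum exceeded the controls by 68.7 CPM, by 38.1 CPM without Usp17le, and by 60.1 to 76.3 CPM with each replicate left out. Genes called higher and lower numbered 1153 and 1493, and 678 higher with at least 10 counts in every sample, a filter that removes genes without control reads. With each replicate left out they ranged from 647 to 2512 higher and from 701 to 2561 lower; control 3 gave the most (2512 and 2561), and the higher calls were 734 without control 1, 647, 742 and 734 without KO 1, 2 and 3, and the lower calls 701, 779 and 790 without KO 1, 2 and 3. The cause was not tested.

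The replicate block gave 798 and 1005 genes, and for the position beside Usp17le -26.9 points (KO) and 12.5 points (adult), each with p = 0.25 by exact sign-flip permutation, which 3 pairs cannot go below. Same-numbered RNA samples had correlations of deviations of -0.284, -0.101 and -0.149, and those of RRBS lay between -0.0052 and 0.0051. No RNA sample correlated best with its own number. No pairing by number was thus seen, though so few samples cannot exclude a shared litter or batch.

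The KO loss of methylation kept its direction in every setting run, from -31.9 to -19.7 points with each replicate left out. As every KO sample lay below every control at the position, leaving out a sample could not turn the sign there. Without KO 3 the mean covered 2 positions (-23.9 points), so for that setting the sign was not fixed in this way. The window of 1 kb and the replicate block held the same position and hence the same value. The adult difference was 7.54 to 16.5 points with each replicate left out, but it reversed to -0.229 with at least 5 calls, to -8.43 with calls pooled within Usp17le and to -0.262 with calls pooled within 5 kb of it; these settings add positions inside the gene. No position had 20 calls in every sample, so that setting gave no value. All exact tests stayed above 0.05 by design, which shows no stability.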

Other observations

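The pseudogene Usp17le-ps (chromosome 7, 104647249 to 104653154, GRCm38), which lies outside the 5 kb windows of the members, was better covered than any of them, with 22 called positions in or within 5 kb of it. Pooled over these, methylated calls were 45 of 106, 154 of 355 and 107 of 202 in controls (42.5%, 43.4% and 53.0%), 78 of 182, 44 of 160 and 13 of 53 in KO samples 1 to 3 (42.9%, 27.5% and 24.5%) and 60 of 172, 124 of 257 and 111 of 396 in adults (34.9%, 48.3% and 28.0%). The KO mean was 31.6% ± 9.84 and the control mean 46.3% ± 5.82 (SD, n = 3 each, two-sided exact permutation p = 0.2), with KO 1 inside the range of the controls. The pooled calls of the controls were thus less methylated here than within 5 kb of Usp17le (mean 87.6%). The 2 pools were not matched for place within the gene or for depth, so nothing is read from that contrast. The pseudogene had 2 reads in all 6 RNA samples.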
